A study of Mus musculus with 30 samples.

Results

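The adipokines described here are 10 genes, *Lep*, *Lepr*, *Retn*, *Cfd*, *Nampt*, *Apln*, *Aplnr*, *Serpina12*, *Itln1* and *Rarres2*, taken by their symbols from a count table of 55401 genes. All 10 were found in the table, and 8 of them passed the filter on low counts, while *Serpina12* and *Itln1* did not. Gonadal white adipose tissue (gWAT) was taken for RNA sequencing from 30 female New Zealand Obese mice (NZO/HIBomDife), an inbred polygenic model of obesity, and each animal gave 1 library. All mice were 10 weeks old and had eaten a high-fat diet for 5 weeks. The study classed 15 of them as diabetes-prone (DP) and 15 as diabetes-resistant (DR) by a risk score, so that the class of a mouse is predicted rather than observed, and DR served as the control group. The comparison asked how gWAT differs between the classes before hyperglycaemia.

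Adipokines are proteins that fat tissue releases into the blood or into its own surroundings. Leptin is secreted by adipocytes in relation to fat mass and acts on receptors in the hypothalamus to restrain feeding. In mice resistin and adipsin are products of adipocytes, and adipsin (complement factor D) is the serine protease that cleaves factor B in the alternative complement pathway. Chemerin attracts immune cells through the receptor encoded by *Cmklr1*, and apelin acts on the apelin receptor of blood vessels.

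Total counts ran from 28146906 to 29974243 per library, and 23854 to 24666 genes had a count. Mitochondrially encoded genes took 5.01 to 7.22% of the counts in DP and 6.09 to 8.29% in DR. The label of fat tissue fitted its markers: all 18 adipocyte markers were expressed in both groups, with summed levels of 33889 to 45204 CPM (counts per 1000000, after TMM scaling) in DP and 45913 to 52647 in DR, and 17 of the 18 fell in DP (median log2 fold change -0.48). Macrophage markers moved the other way, with 16 of 20 higher and 2 lower in DP, and their summed level was 5373 to 7845 CPM in DP and 2023 to 4853 in DR. None of these 38 markers was at 0 in every library, and neither summed range overlapped between the groups. In bulk tissue, fewer cells of a type and less RNA per cell cannot be told apart. The summed markers of intestine, ovary and mammary epithelium reached at most 34.0, 3.30 and 3.01 CPM in any library.

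The members spanned a wide range of levels per length, given here as FPKM (CPM divided by the summed exon length in kilobases). In DP the order was *Lep* at 882 ± 82.1 FPKM (SD, n = 15 here and below), *Cfd* at 393 ± 120.5, *Retn* at 164 ± 24.2, *Rarres2* at 164 ± 11.6, *Nampt* at 16.8 ± 1.37, *Aplnr* at 14.2 ± 2.39, *Apln* at 4.42 ± 1.26 and *Lepr* at 0.858 ± 0.191. *Retn* and *Rarres2* changed places from library to library in DP, with *Retn* above in 8 of 15, and *Nampt* and *Aplnr* also overlapped, with *Nampt* above in 11 of 15. In DR *Cfd* stood first at 1170 ± 518 FPKM and *Lep* second at 1051 ± 109, but *Cfd* exceeded *Lep* in only 9 of the 15 DR libraries, so that these neighbours did not differ beyond their spread. In all 15 DP libraries *Lep* exceeded *Cfd*. The next places in DR were held by *Retn* at 294 ± 71.6 FPKM and *Rarres2* at 181 ± 12.3, with *Retn* above in 15 of 15. Over both groups *Lep* ranked 40th, *Cfd* 49th, *Retn* 155th and *Rarres2* 214th by FPKM among the 17482 genes tested, while *Lepr* ranked 13435th.

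Of the 8 members tested, 4 fell in DP (*Cfd*, *Retn*, *Lep* and *Rarres2*), 0 rose and 4 did not pass (*Lepr*, *Apln*, *Aplnr* and *Nampt*). Of all genes tested, 27.3% fell, 28.2% rose and 55.5% passed in either direction, so that the share of members that passed was close to that of all genes. The median log2 fold change was -0.15 over the 8 members and -0.0056 over all genes. The test was the quasi-likelihood F test of edgeR, its p-values adjusted after Benjamini and Hochberg over the 17482 genes, and a fold change is DP against DR. Members that fell by at least 1.5-fold were *Cfd* and *Retn*, 2 of 8, against 4.6% of all genes. The libraries of DP and DR did not overlap at all in 0 of 8 members, against 2.89% of all genes. The count of 4 falls and 0 rises was the same with each of the 30 libraries left out in turn, and with DESeq2 and limma-voom. Relative to the adipocyte markers, however, 2 members fell and 6 rose, in a scaling that placed 81.4% of all genes higher in DP, 2.18% lower, and the median gene at 0.48 on the log2 scale. With a macrophage or an adipocyte marker score as a covariate in edgeR, neither of which overlapped between the groups, 0 of 8 members passed (0 and 1 at an unadjusted p under 0.05, the 1 being *Lep*). Hardly any other gene passed either. Of all 17482 genes, 2 fell and 1 rose with the macrophage score, and 0 passed with the adipocyte score. Directions below are those under TMM, and for members that turned both values are given.

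**Figure D1:**
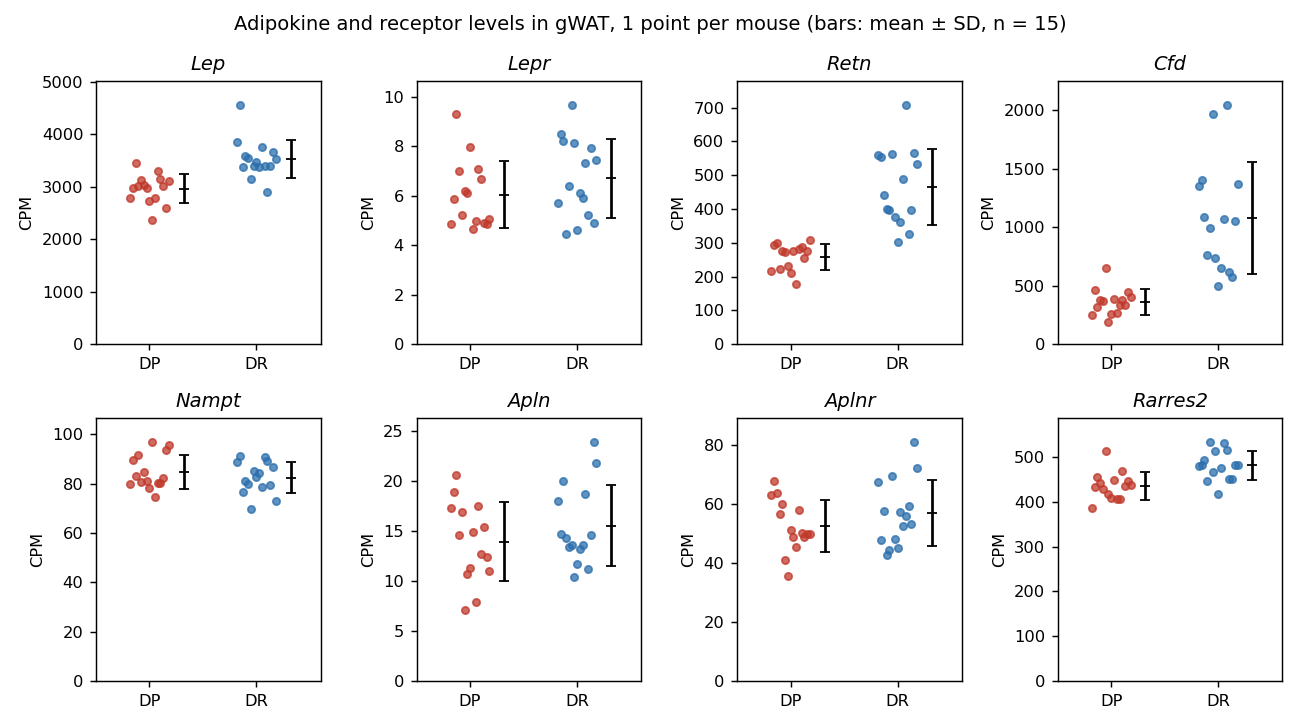
Levels of the 8 members that passed the filter, in CPM on linear axes from 0, with 1 point per mouse for DP (red) and DR (blue) and the mean ± SD of 15 mice in black. *Retn* and *Cfd* separated the groups in all but 1 DP library each, *Lep* and *Rarres2* were shifted down with overlap under this scaling (but both were higher in DP relative to adipocyte markers, by 0.24 and 0.34 on the log2 scale), and the 4 others overlapped widely.

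*Cfd*, which encodes adipsin, lies on chromosome 10 (79890853 to 79892655 of GRCm38, plus strand, 922 exon bases). It had the largest fall among the members. Its level in DP ran from 188 to 655 CPM with a median of 367, and in DR from 498 to 2046 with a median of 1053. Of the 15 DP libraries, 14 lay below the lowest DR library, and the exception was DP replicate 6 at 655 CPM. The mean of 362 ± 111 CPM in DP was 2.98-fold lower than the 1079 ± 478 of DR (log2 fold change -1.58 ± 0.19 SE, 95% interval -1.96 to -1.19, adjusted p = 3.82e-08). A change of that size or more, in either direction, was seen in 0.418% of the genes tested. Scaled to the adipocyte markers the log2 fold change was -1.10 (adjusted p = 2.12e-07), so *Cfd* fell by more than the markers as a whole. Adiponectin (*Adipoq*), itself among those markers, fell from 2050 ± 363 CPM in DR to 954 ± 146 in DP (log2 fold change -1.10 ± 0.083 SE, adjusted p = 6.07e-11).

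*Retn*, the resistin gene, lies on chromosome 8 (3655770 to 3660110, plus strand, 1579 exon bases). In DP it ran from 178 to 309 CPM with a median of 275, against 302 to 708 with a median of 440.1 in DR. Here too 14 of 15 DP libraries fell below every DR library, with DP replicate 15 at 309 CPM just above the lowest DR library, replicate 8 at 302. The mean of 259 ± 38.3 CPM in DP was 1.79-fold lower than the 465 ± 113 of DR (log2 fold change -0.84 ± 0.10 SE, 95% interval -1.05 to -0.63, adjusted p = 4.11e-08). The 95% intervals of the *Retn* and *Cfd* changes did not overlap. Relative to the adipocyte markers *Retn* still fell, with a log2 fold change of -0.35 (adjusted p = 5.77e-04).

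*Lep* lies on chromosome 6 (29060220 to 29073877, plus strand, 3354 exon bases) and was the member with the highest counts. Its level ran from 2362.5 to 3458 CPM in DP with a median of 3011, and from 2899 to 4554 in DR with a median of 3473. All 15 DP libraries were below the DR median, but only 5 of them were below the lowest DR library, so the groups overlapped. The means of 2957 ± 275 and 3526 ± 365 CPM differed 1.19-fold (log2 fold change -0.25 ± 0.051 SE, 95% interval -0.36 to -0.15, adjusted p = 8.45e-05), a direction that turned to 0.24 (adjusted p = 0.00147) when libraries were scaled to the adipocyte markers. The log2 ratio of *Lep* to the mean of those markers was 1.70 ± 0.21 in DP and 1.47 ± 0.16 in DR. *Lep* RNA thus made up less of all RNA in DP, and more relative to adipocyte marker RNA.

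*Rarres2*, the chemerin gene, lies on chromosome 6 (48569696 to 48572789, minus strand, 2656 exon bases). It had a small fall with a narrow spread. DP libraries ran from 386 to 514 CPM with a median of 435, and DR libraries from 419 to 534 with a median of 482. The ranges overlapped over most of their width, and 14 of 15 DP libraries were below the DR median. The means were 436 ± 30.9 and 482 ± 32.5 CPM (log2 fold change -0.15 ± 0.037 SE, 95% interval -0.22 to -0.07, adjusted p = 0.00107), which turned to 0.34 (adjusted p = 4.73e-10) with adipocyte marker scaling. Its exons share 892 bases, 33.6% of its exon length, with *Lrrc61* on the opposite strand, and since the sources used here do not say whether counting used strand, reads of that stretch cannot be assigned with certainty. *Lrrc61* had 13721 counts over the 30 libraries together, about as many as the 13196 that *Rarres2* had in an average library.

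*Lepr* encodes the leptin receptor (chromosome 4, 101717404 to 101815352, plus strand), whose gene-level count does not separate its splice forms. It ran from 4.66 to 9.30 CPM in DP with a median of 5.84, and from 4.46 to 9.66 in DR with a median of 6.40. The groups overlapped almost fully, and the log2 fold change was -0.15 with a 95% interval of -0.38 to 0.09 (adjusted p = 0.290).

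The apelin gene *Apln* is on chromosome X (48025146 to 48034853, minus strand). Its level was 7.10 to 20.6 CPM in DP (median 14.6) and 10.3 to 23.9 in DR (median 14.3), and the log2 fold change was -0.16 with a 95% interval of -0.44 to 0.12 (adjusted p = 0.350). The receptor gene *Aplnr* (chromosome 2, 85136225 to 85139923, plus strand) ran from 35.5 to 67.8 CPM in DP (median 50.3) and from 42.6 to 81.2 in DR (median 55.8), with a log2 fold change of -0.11 (-0.30 to 0.07, adjusted p = 0.305). Neither ligand nor receptor passed the test, and their intervals leave changes of up to -0.44 and -0.30 possible.

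*Nampt* (chromosome 12, 32819545 to 32853349, plus strand) encodes visfatin, the enzyme that starts the salvage of nicotinamide to NAD. It ran from 74.7 to 97.0 CPM in DP (median 82.1) and from 69.7 to 91.2 in DR (median 82.8), a log2 fold change of 0.04 with a 95% interval of -0.04 to 0.12 (adjusted p = 0.425). The interval reached no further than 0.12 on the log2 scale under TMM. Scaled to the adipocyte markers *Nampt* was higher in DP by 0.53 (adjusted p = 6.22e-11). The other 3 members that did not pass under TMM were higher under that scaling as well, *Lepr* by 0.35, *Apln* by 0.35 and *Aplnr* by 0.38, each past the threshold.

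**Figure D2:**
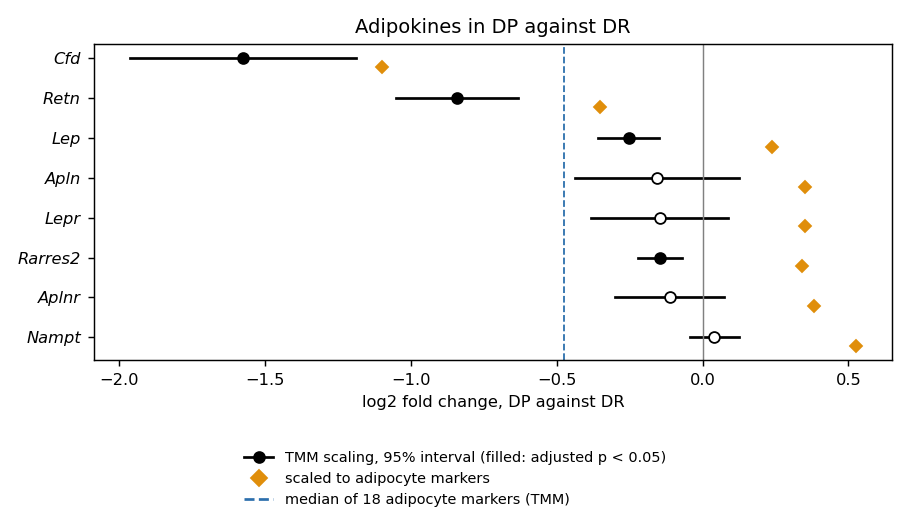
Log2 fold change of each member, DP against DR, with its 95% interval under TMM scaling (black, filled where the adjusted p was under 0.05) and the value after scaling to 18 adipocyte markers (orange diamonds). The dashed line marks the median change of those markers, -0.48. *Cfd* and *Retn* lie to its left, and the 6 others lie to its right, with diamonds above 0.

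*Serpina12*, which encodes vaspin, a serpin that inhibits the protease kallikrein 7, and *Itln1*, which encodes the lectin intelectin 1 (omentin), were near the limit of detection. *Serpina12* had 0 to 18 counts per library in DP (median 8, 1 library at 0) and 0 to 60 in DR (median 5, 3 libraries at 0). Both groups summed to 136 counts, and 60 of those in DR came from DR replicate 7. *Itln1* had 0 to 9 counts in both groups, with 7 libraries at 0 and 46 counts in all in DP, and 8 libraries at 0 and 39 counts in DR. A count of 0 allows up to 3 counts, or 0.100 to 0.107 CPM without TMM. In edgeR without the filter neither gene passed, with log2 fold changes of -0.03 for *Serpina12* (adjusted p = 0.996) and 0.20 for *Itln1* (adjusted p = 0.884). At counts this low these values do not show that the groups were alike.

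The sequences upstream of the transcription start are given for the pair that fell most, *Cfd* and *Retn*, for *Lep*, which fell less, and for *Nampt*, whose level was alike in both groups under TMM, so that their base content can be compared. The RefSeq start of *Nampt* lies inside the gene span given above, so its window falls within that span and not before it. Each line holds the 250 bases before the RefSeq start in GRCm38.p6, read along the gene, with capitals for a C/EBP motif (TTGCNNAA) or a GC box (GGGCGG, or its reverse complement):
Cfd (chr10:79890603-79890852, plus strand): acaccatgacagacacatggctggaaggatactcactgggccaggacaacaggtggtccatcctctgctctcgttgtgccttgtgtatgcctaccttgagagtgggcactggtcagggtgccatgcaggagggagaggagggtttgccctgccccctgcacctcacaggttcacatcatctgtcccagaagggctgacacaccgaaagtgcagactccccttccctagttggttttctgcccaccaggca
Retn (chr8:3655520-3655769, plus strand): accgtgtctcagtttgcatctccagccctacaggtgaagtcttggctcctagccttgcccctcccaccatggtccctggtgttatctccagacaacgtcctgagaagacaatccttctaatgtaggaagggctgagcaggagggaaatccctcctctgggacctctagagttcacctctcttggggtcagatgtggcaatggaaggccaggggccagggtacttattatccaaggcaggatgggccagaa
Lep (chr6:29059971-29060220, plus strand): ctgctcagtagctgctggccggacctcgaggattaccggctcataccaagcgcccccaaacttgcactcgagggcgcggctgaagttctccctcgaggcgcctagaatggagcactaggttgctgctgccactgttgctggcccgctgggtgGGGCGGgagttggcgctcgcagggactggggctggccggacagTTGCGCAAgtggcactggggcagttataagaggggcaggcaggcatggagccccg
Nampt (chr12:32820085-32820334, plus strand): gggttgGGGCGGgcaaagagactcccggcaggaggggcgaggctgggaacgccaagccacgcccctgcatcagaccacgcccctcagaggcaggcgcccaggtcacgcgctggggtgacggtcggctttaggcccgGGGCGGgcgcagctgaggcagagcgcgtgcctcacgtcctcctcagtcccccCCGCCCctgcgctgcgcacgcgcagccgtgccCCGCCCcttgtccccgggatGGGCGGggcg

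*Lep* held 1 C/EBP motif, TTGCGCAA, whose first base lay 55 bases before the start, and among the 8 members with a RefSeq window the only other was TTGCAAAA in *Serpina12*, 90 bases before its start. C/EBP factors are transcription factors of adipocyte differentiation, and 9.56% of all 32851 windows of the same length held the motif on either strand. *Nampt* held 5 GC boxes and *Lep* 1, against 32.7% of all windows with at least 1. The *Cfd* and *Retn* windows held neither of them, and the letters TATAAA, present in 12.4% of all windows, were in none of the members' windows. G and C made up 57.6% of the *Cfd*, 54.8% of the *Retn*, 65.6% of the *Lep* and 75.6% of the *Nampt* window. No 2 of these motifs overlapped in the windows shown.

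The spread between mice differed widely among the 8 members tested. *Cfd* varied most of these, with a coefficient of variation of 30.7% in DP and 44.2% in DR, followed by *Apln* (28.4 and 25.9%), *Lepr* (22.3 and 23.8%) and *Retn* (14.8 and 24.3%). *Aplnr* varied by 16.8% in DP and 19.9% in DR, while *Lep* (9.32 and 10.4%), *Nampt* (8.13 and 7.80%) and *Rarres2* (7.09 and 6.75%) were the steadiest. *Retn* deviated from its group median by 0.17 on the log2 scale in DP and 0.29 in DR on average, and *Cfd* by 0.31 and 0.50. Neither difference in spread passed a limma test on absolute deviations (unadjusted p = 0.0819 and 0.154, adjusted p = 0.760 and 0.842). By that test 0 of 8 members, and 0% of all genes in either direction, passed, and 0 of 8 members had an unadjusted p under 0.05. In simulated data with 15 mice a group, 200 of 17482 genes were given a 3-fold wider SD in DR, and the test recovered 28 of them. These counts of 0 therefore do not show that the spreads were alike.

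Single mice stood at the ends of several members at once. DR replicate 11 had the highest *Retn* (708 CPM) and *Cfd* (2046 CPM), and DR replicate 8 the lowest DR values of *Retn* (302), *Cfd* (498) and *Rarres2* (419). DP replicate 6 had the highest DP values of *Cfd* (655) and *Rarres2* (514) and the lowest of *Apln* (7.10). DP replicates 9 and 14 were the lowest 2 of their group in both *Lep* and *Lepr*, and DP replicate 3 was the highest in both, at 3458 and 9.30 CPM.

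Correlations between members were taken within each group of 15 mice, on log2 CPM, for 28 pairs. Most were weak: the median Pearson's r was 0.19 in DP and 0.26 in DR, and 22 and 23 of the 28 were above 0. With permutation p-values adjusted over the 56 relations of both groups, 2 pairs passed in DP and 1 in DR, and 0 pairs passed in both (7 in DP and 4 in DR had an unadjusted p under 0.05). Members share a library, its scaling and its mix of cells.

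**Figure D3:**
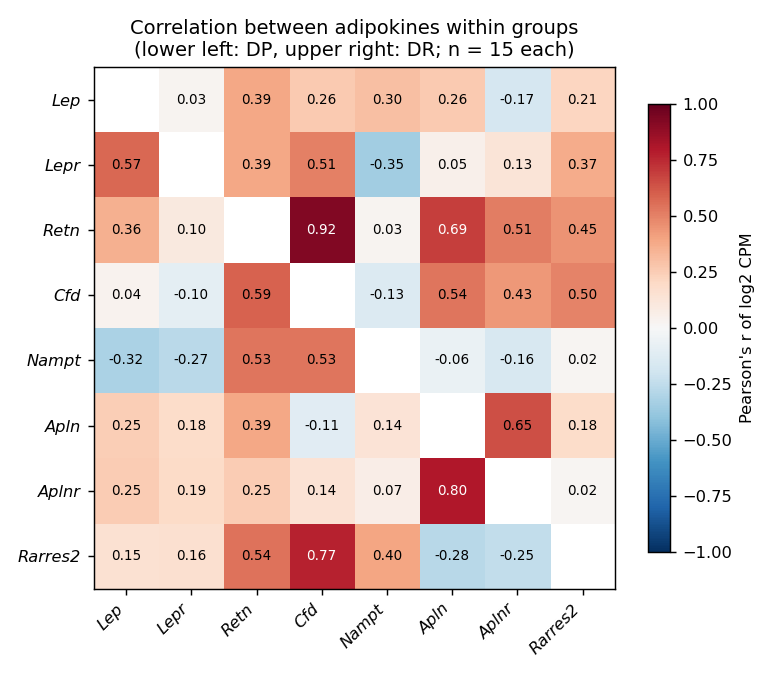
Pearson's r of log2 CPM for each pair of members, with DP below the diagonal and DR above it (n = 15 mice each), from blue (-1) to red (1). The darkest squares are *Retn* with *Cfd* in DR (0.92), *Apln* with *Aplnr* in DP (0.80) and *Cfd* with *Rarres2* in DP (0.77).

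*Retn* and *Cfd* varied together among DR mice, with r = 0.92 and rho = 0.87 (permutation p = 2e-05, adjusted p = 0.00112), and r was 0.88 without DR replicates 8 and 11, the pair of libraries farthest from the *Retn* median. Among DP mice the same pair gave r = 0.59 (rho = 0.56, permutation p = 0.0220, adjusted p = 0.198). Scaled to the adipocyte markers, *Retn* and *Cfd* gave r = 0.20 in DP and 0.90 in DR (permutation tests, adjusted p = 0.711 and 0.00168). A difference between the groups in r was not tested here or for the pairs below. The ligand *Apln* and its receptor *Aplnr* correlated in DP, with r = 0.80 and rho = 0.84 (permutation p = 0.00039, adjusted p = 0.0109), and r was 0.81 without DP replicates 6 and 10. In DR they gave r = 0.65 and rho = 0.47 (permutation p = 0.00963, adjusted p = 0.108), and r fell to 0.35 without DR replicates 14 and 15, on which that value rested.

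*Cfd* and *Rarres2* correlated in DP by Pearson's r (0.77, permutation p = 0.0013, adjusted p = 0.0243), but not by rho (0.65, adjusted p = 0.106), and r was 0.69 without DP replicates 6 and 7. Scaled to the adipocyte markers, this r became -0.16. *Lep* and *Lepr* gave r = 0.57 and rho = 0.59 in DP (permutation p = 0.0248, adjusted p = 0.198), and r = 0.43 without DP replicates 9 and 14. In DR *Lep* and *Lepr* gave r = 0.03 and rho = -0.26 (permutation tests, adjusted p = 0.947 and 0.650), and r = -0.67 without DR replicates 2 and 12. Scaled to the adipocyte markers the DP pair passed, with r = 0.73 (permutation p = 0.00225, adjusted p = 0.042), while DR gave 0.07. That scaling also raised the median r of all 28 pairs in DP, from 0.19 to 0.42. In DR the next largest were *Retn* with *Apln* (r = 0.69, permutation p = 0.00467, adjusted p = 0.0654), which passed by rho (0.77, adjusted p = 0.0254), and *Cfd* with *Apln* (r = 0.54, rho = 0.60, permutation p = 0.0393, adjusted p = 0.206), which were 0.65 and 0.43 without DR replicates 8 and 11.

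**Figure D4:**
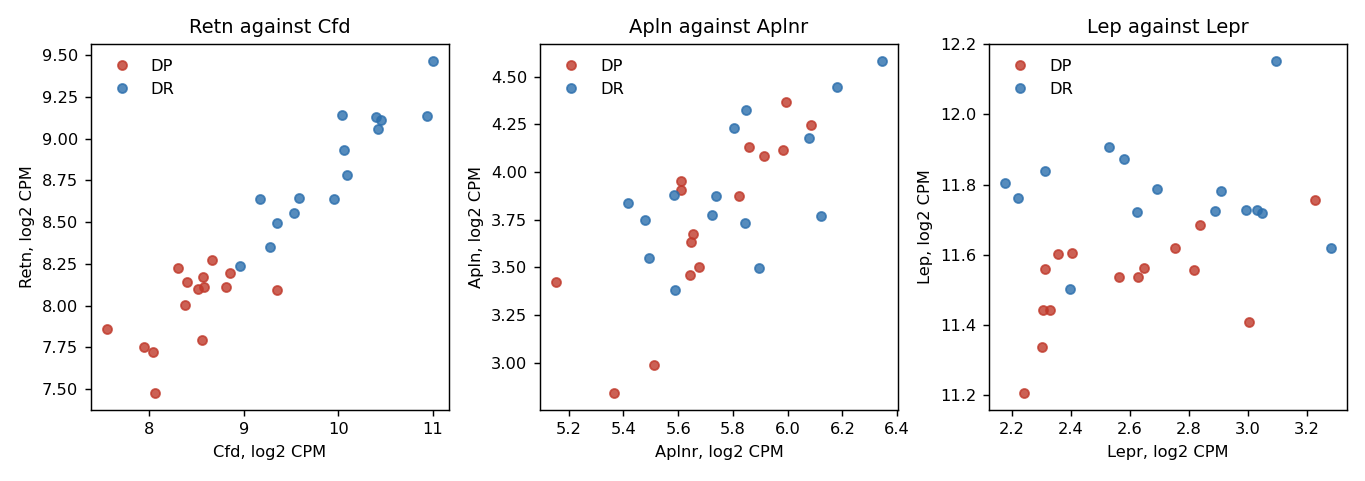
*Retn* against *Cfd*, *Apln* against *Aplnr* and *Lep* against *Lepr*, in log2 CPM, 1 point per mouse, with DP in red and DR in blue. *Retn* and *Cfd* form a band in DR (r = 0.92), and *Apln* and *Aplnr* overlap between the groups. *Lep* follows *Lepr* loosely in DP (r = 0.57, which did not pass under TMM but did with adipocyte marker scaling, r = 0.73), but not in DR (r = 0.03).

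Markers of other cells moved with *Retn* and *Cfd*. In relations with mean log2 CPM scores of 5 marker lists, chosen after the data were seen and adjusted over 80 relations, *Retn* gave r = -0.95 with the macrophage markers in DR (rho = -0.91, permutation p = 1e-05, the smallest that 100000 resamples can give, adjusted p = 0.0004, -0.92 without the 2 libraries farthest from the median score). *Cfd* gave r = -0.90 there (rho = -0.89, permutation p = 1e-05, adjusted p = 0.0004, -0.86 without the 2 farthest). In DP both gave r = -0.70 (rho = -0.62, permutation p = 0.00328 and 0.00304, adjusted p = 0.0292 for each, and -0.70 and -0.71 without the 2 farthest), but neither passed by rho (adjusted p = 0.121). DR replicate 11, the highest in *Retn* and *Cfd*, had the lowest macrophage score of all mice (5.82), and DR replicate 8, the lowest of its group in both, had the highest DR score (6.83). The score ran from 6.98 to 7.32 in DP, so that it did not overlap between the groups, and the part of these cells in the difference between DP and DR cannot be told apart from the class of the mice.

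**Figure D5:**
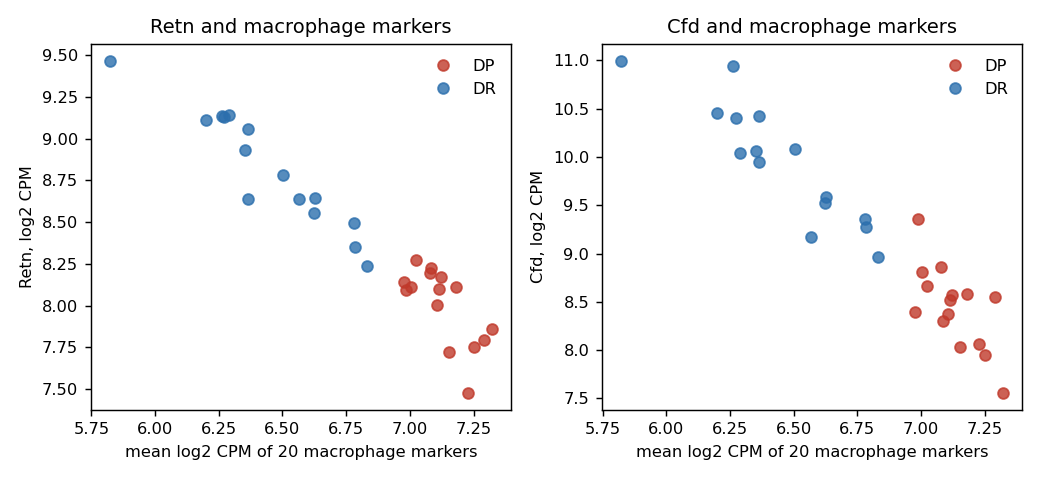
*Retn* and *Cfd* in log2 CPM against the mean log2 CPM of 20 macrophage markers, 1 point per mouse, DP in red and DR in blue. Both genes decline as the score rises within DR (r = -0.95 and -0.90) and within DP (r = -0.70 for both), and the groups do not overlap along the score.

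*Cfd* and *Retn*, and some other members, also followed other marker lists. *Cfd* correlated with the endothelial markers in DR (r = 0.85, rho = 0.89, permutation p = 2e-05, adjusted p = 0.000533, 0.80 without the 2 farthest), as did *Retn* (r = 0.80, rho = 0.81, permutation p = 0.00035, adjusted p = 0.0056). Their r with the same markers in DP was 0.53 and 0.50, which did not pass (permutation tests, adjusted p = 0.167 and 0.198). *Aplnr*, which endothelial cells express, followed those markers in DP (r = 0.78, rho = 0.74, permutation p = 0.00064, adjusted p = 0.00853, 0.60 without the 2 farthest). Its value in DR, r = 0.49, did not pass (permutation test, adjusted p = 0.213). *Cfd* followed the adipocyte markers in DP (r = 0.80, rho = 0.80, permutation p = 0.00035, adjusted p = 0.0056, 0.63 without the 2 farthest), while r = 0.60 in DR did not pass (permutation test, adjusted p = 0.104). *Rarres2* followed them in both groups (r = 0.69 in DP and 0.67 in DR, rho = 0.50 and 0.54, permutation p = 0.00612 and 0.00621, adjusted p = 0.0452 for each), but not past the threshold by rho (adjusted p = 0.210 and 0.178). Without the 2 farthest libraries the *Rarres2* values were 0.39 and 0.50, so these relations rested on few mice. *Lepr* followed the mesothelial markers in DR (r = 0.72, rho = 0.70, permutation p = 0.00323, adjusted p = 0.0292, 0.74 without the 2 farthest), but not past the threshold by rho (adjusted p = 0.0562). Its value in DP, r = 0.38, did not pass (permutation test, adjusted p = 0.347). All 11 endothelial markers fell in DP (summed 811 to 1286 CPM, against 1075 to 1556 in DR), and 8 of 10 mesothelial markers fell (57.8 to 159.6 against 88.5 to 263 CPM), whereas relative to the adipocyte markers 4 of 11 endothelial and 1 of 10 mesothelial markers rose and 0 fell. The part of these cells in the members' values was not tested.

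The genes most like each member were sought over the 30 mice on log2 CPM centred within each group, as a description without a test. For *Retn* they were *Gstz1* (r = 0.93), *Glb1l2* (0.88) and *Cdo1* (0.87), and for *Cfd* they were *Nrbp2* (0.92), *Adipoq* (0.91) and *Acadsb* (0.91), which takes part in branched-chain amino acid breakdown. *Gstz1* acts in tyrosine breakdown and *Cdo1* oxidises cysteine. The 3 nearest genes were picked from 12705 candidates, whereas the counts that follow are over all other genes tested. Both adipokines stood in a large company, with r above 0.8 for 45 genes with *Retn* and 54 with *Cfd*, and below -0.8 for 408 and 329. *Lep* had 1 gene above 0.8, *Gpatch11* (0.81), followed by *Rbm28* (0.73), which lies 49699 bases from *Lep* on chromosome 6, and *Gatb* (0.73). *Rarres2* was most like *Mgst1* (0.84), *Cox6a1* (0.82) and *Cd151* (0.81), and *Apln* was most like *Nos2* (0.85), the inducible nitric oxide synthase, *Pls3* (0.83) and *Ret* (0.82). *Aplnr* was closest to *Ets2* (0.81), *Klhl4* (0.79) and *Fbxl7* (0.78). *Lepr* was closest to the progenitor and vascular marker *Cd34* (0.72), *Clec11a* (0.71) and *Thbs3* (0.70), and *Nampt* to *H2-T24* (0.75), *Letm1* (0.70) and *Etfdh* (0.67), and neither had a gene above 0.8.

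Genes that act with the members changed in both directions under TMM, and of those named below that fell only *Mme* also fell relative to the adipocyte markers. In leptin signalling 6 of 12 genes rose and 3 fell, with a median log2 fold change of 0.08 (12 rose relative to the adipocyte markers). *Ptpn1*, a phosphatase that restrains leptin and insulin receptor signalling, rose from 65.9 ± 4.89 CPM in DR to 88.0 ± 6.05 in DP (log2 fold change 0.42, adjusted p = 5.51e-10), and *Leprot*, whose product lowers leptin receptor levels at the cell surface, rose from 84.1 ± 5.98 to 105.0 ± 5.68 CPM (0.32, adjusted p = 4.28e-09). *Ptpn11*, a phosphatase that carries the leptin signal to the ERK pathway, fell from 238 ± 13.9 to 204 ± 7.70 CPM (log2 fold change -0.22, adjusted p = 6.74e-08), and the transcription factor *Stat5a* fell from 59.5 ± 4.13 to 48.2 ± 4.17 CPM (-0.30, adjusted p = 2.40e-07), and both turned relative to the adipocyte markers (0.27 and 0.18). In all 15 DP libraries *Ptpn1* and *Leprot* lay above the DR median, and *Ptpn11* and *Stat5a* below it.

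In the resistin family and its proposed receptors, 3 of 5 genes tested rose and 1 fell (median log2 fold change 0.37), against 4 and 0 relative to the adipocyte markers. The adenylyl cyclase-associated protein *Cap1*, proposed as a resistin receptor in human cells, rose (log2 fold change 0.44, adjusted p = 1.29e-08), as did *Tlr4* (0.29, adjusted p = 1.03e-04) and *Ror1* (0.37, adjusted p = 0.00142). *Retnla*, a resistin-like gene of alternatively activated macrophages, moved the other way, from 104 ± 27.9 CPM in DR to 64.7 ± 14.1 in DP (-0.68, adjusted p = 9.87e-06), and gave -0.18 relative to the adipocyte markers, which did not pass (adjusted p = 0.175). *Retnlb* was at 0 in every library, and *Retnlg*, at 0.545 CPM in DP against 0.317 in DR, did not pass (adjusted p = 0.124).

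In the alternative complement pathway, where adipsin acts, 5 of 11 genes rose and 2 fell (median log2 fold change 0.22), while 9 rose and 0 fell relative to the adipocyte markers. *C3*, the central component, had 1097 ± 178 CPM in DP against 1157 ± 142 in DR (adjusted p = 0.371), and factor B (*Cfb*), the substrate of adipsin, at 199 ± 37.8 and 225 ± 27.5 CPM (adjusted p = 0.0593). Relative to the adipocyte markers both were higher in DP, *C3* by 0.42 (adjusted p = 5.82e-05) and *Cfb* by 0.31 (adjusted p = 0.00124). The receptors for the C3a and C5a fragments rose, *C3ar1* from 95.4 ± 37.3 to 211 ± 37.2 CPM (log2 fold change 1.15, adjusted p = 1.84e-07) and *C5ar1* from 29.4 ± 8.84 to 60.9 ± 9.87 CPM (1.05, adjusted p = 1.29e-08). Properdin (*Cfp*), which stabilises the C3 convertase, rose as well (0.45, adjusted p = 8.24e-08), while *Cd59a*, which blocks the membrane attack complex, fell (-0.39, adjusted p = 5.51e-10) but was 0.10 higher relative to the adipocyte markers. *C3ar1*, *C5ar1* and *Cfp* are expressed by macrophages, whose markers rose in the same libraries, and the part of those cells was not tested.

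Chemerin receptors and proteases gave 3 rises and 2 falls among 6 genes tested, with a median log2 fold change of 0.0068, and 3 rises and 0 falls relative to the adipocyte markers. *Cmklr1*, the signalling receptor of chemerin, fell from 88.0 ± 17.4 CPM in DR to 64.0 ± 6.01 in DP (log2 fold change -0.46, adjusted p = 4.95e-06), and the second receptor *Gpr1* fell from 4.33 ± 1.12 to 3.34 ± 0.574 CPM (-0.38, adjusted p = 0.00479). *Ccrl2*, which binds chemerin without signalling, rose (0.41, adjusted p = 6.55e-05). The cathepsins *Ctsk* (0.97, adjusted p = 1.43e-08) and *Ctsl* (0.39, adjusted p = 5.97e-08), proteases that can cleave the chemerin precursor, rose too. *Rarres2* and the receptor genes *Cmklr1* and *Gpr1* were therefore all lower in DP under TMM, while relative to the adipocyte markers *Rarres2* was higher by 0.34 and the receptors gave 0.03 and 0.11, which did not pass (adjusted p = 0.659 and 0.324).

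Around *Nampt*, 3 of 14 genes of NAD metabolism tested rose and 6 fell (median log2 fold change -0.10), while 12 rose and 0 fell relative to the adipocyte markers. *Bst1*, an NAD glycohydrolase of the cell surface, rose from 9.68 ± 2.35 to 18.9 ± 3.28 CPM (log2 fold change 0.97, adjusted p = 6.39e-09), and the NAD consumer *Parp1* rose from 51.3 ± 3.95 to 62.0 ± 3.74 CPM (0.27, adjusted p = 1.92e-07). *Nnmt*, which methylates nicotinamide, fell from 133 ± 15.5 to 106 ± 9.81 CPM (-0.33, adjusted p = 8.55e-06), and the NAD kinase *Nadk* fell slightly (-0.10, adjusted p = 1.75e-04). Relative to the adipocyte markers the last 2 were higher, by 0.16 and 0.39.

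Of 6 apelin partners tested, 2 rose and 1 fell (median log2 fold change 0.07), against 4 and 1 relative to the adipocyte markers. *Mme*, the peptidase neprilysin that can degrade apelin, fell from 119 ± 11.9 to 78.6 ± 10.6 CPM (log2 fold change -0.60, adjusted p = 2.49e-09, and -0.12 with adjusted p = 0.0451 relative to the adipocyte markers), and *Arrb2*, a beta-arrestin that acts on many receptors of this class, rose from 58.0 ± 8.35 to 91.2 ± 6.55 CPM (0.65, adjusted p = 5.51e-10). *Furin*, which can process the apelin precursor, rose slightly (0.10, adjusted p = 0.00581). The chaperone *Hspa5*, a reported binding partner of vaspin at the cell surface, rose from 411 ± 46.1 to 519 ± 48.7 CPM (0.34, adjusted p = 1.94e-06), and the other listed vaspin partner, *Klk7*, was too low to test.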

How the data were processed

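Total RNA of gWAT from 30 mice was extracted with a miRNeasy kit and sequenced by a commercial provider. Per the labels, the deposited values are estimated counts of each gene from StringTie 2.1.3b with the assembly GRCm38.p6. They were whole numbers and needed no rounding. All 30 count columns were used and 0 were left over. The sources used here name no aligner and do not say whether counting used strand. GENCODE M21 gave positions and exon lengths (55141 identifiers found), and RefSeq on GRCm38.p6 gave the promoter windows.

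Groups came from the disease state in the labels, and replicates were numbered in deposition order. Every pair of libraries differed by more than sampling noise. Differences were tested with edgeR 4.0.16 (R 4.3.3) after TMM scaling and the default filterByExpr (count 10, total 15), at an adjusted p under 0.05. Spread was tested with limma 3.58.1 on absolute deviations from the group median. Correlations used log2 CPM (prior count 2) and two-sided permutation tests of 100000 resamples. All of these were tested on simulated data, where the spread test missed most of the differences it was given. There edgeR recovered 31 of 50 genes changed 1.25-fold, 45 of 50 at 1.5-fold, 48 of 50 at 2-fold and 49 of 50 at 0.5-fold. Changes smaller than 1.25-fold were not simulated. The limits for counts of 0 cover counting error only, and p-values measure the spread between mice.

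All members are named. Each partner list gave up to 4 genes with the smallest p that passed, plus the members' receptors, and each member gave the 3 genes most like it with a mean count of at least 50. *C3*, *Cfb*, *Retnlb*, *Retnlg* and *Klk7* were named as background to a list or after their values were seen. The members and lists were chosen with earlier results of these data known. Alternatives were DESeq2 1.42.0, limma-voom, other scalings and filters, covariates and omission of each library.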

Additional observations from a re-analysis of the deposited data

How the results depend on the processing

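No paired analysis was possible because the labels carry no replicate numbers, and numbers given in deposition order do not pair mice. With DESeq2, limma-voom, factors from relative log expression or the upper quartile, no composition factor, no filter, a mean FPKM over 1 and library number as a covariate, 4 members fell and 0 rose, as under TMM. Without each library in turn, 4 members fell and 0 rose in every fit, and over all genes 4656 to 5152 fell and 4518 to 4922 rose. Scaled to the adipocyte markers, 2 members fell and 6 rose (all genes 381 and 14235), with log2 fold changes of 0.24 for *Lep*, 0.35 for *Lepr*, 0.35 for *Apln*, 0.38 for *Aplnr* and 0.34 for *Rarres2*. A fold of at least 1.5 left 2 members lower (all genes 805 lower and 1239 higher).

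With macrophage markers as a covariate, 0 members passed in either direction (all genes 2 lower and 1 higher, 2090 at an unadjusted p under 0.05), and the values of *Retn*, *Cfd* and *Rarres2* were 0.047, 0.024 and 0.014. With adipocyte markers as a covariate, 0 members and 0 genes passed (1605 at an unadjusted p under 0.05), with *Lep* at -0.30, *Retn* at -0.22, *Cfd* at -0.20 and *Rarres2* at 0.13. These covariate fits were run with edgeR alone, and neither score overlaps between the groups, so that score and group cannot be told apart. By Spearman's rho 1 pair of members passed in DP and 2 in DR (*Retn* with *Apln* was gained), and in DP the r of *Cfd* with *Rarres2* was -0.16 after adipocyte marker scaling. The spread test also passed 0 members around the group mean, without a composition factor and with a prior count of 0.5. That says nothing about stability, since the test missed most of the differences simulated for it.

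The groups are classes predicted by a risk score and the tissue is a mix of cells, so that a level in CPM moves with the other RNA of the library. *Serpina12* and *Itln1*, with at most 60 and 9 counts per library, are limited by depth.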
